A study of Mus musculus with 7 samples.

Results

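Aldh1a3 encodes a retinaldehyde dehydrogenase, the enzyme that turns retinaldehyde into retinoic acid, and its activity is widely used to enrich progenitor cells of the mammary epithelium. The luminal layer of a mammary duct holds hormone-sensing (HS) cells, which carry the estrogen and progesterone receptors, and alveolar (AV) cells, which make milk proteins after pregnancy. Luminal progenitor cells are counted among the AV cells and are usually recognised by Kit, a receptor tyrosine kinase, Cd14, a co-receptor for bacterial lipopolysaccharide, and Aldh1a3 itself.

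AV cells with at least 1 unique molecular identifier (UMI, 1 captured mRNA molecule) of Aldh1a3 were chosen by that count within the AV cells named in the deposited annotation, and were set against AV cells of the same mouse with 0. There were 1606 such cells among 4820 AV cells and 13684 cells in all. The cells were dissociated from the abdominal mammary glands, without their lymph nodes, of nulliparous females in diestrus, 3 of them young (3 to 4 months) and 4 aged (13 to 14 months). All were untreated mice of a mixed strain background (FVB, 129, C57BL/6J). One droplet-based library was made per mouse, and young mice are named A to C and aged mice A to D. The 2 age groups also differ in how barcodes and total counts are written in the deposited tables, so an effect of age and one of processing cannot be told apart. The Aldh1a3 gene (RefSeq gene 56847) lies on chromosome 7 from 66390892 to 66427477 in GRCm38, the assembly that mm10 names.

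The mice held between 6652599 and 16999625 UMIs. The median AV cell held 4864 to 5603 UMIs in the young and 6407 to 7796 in the aged mice. All the AV cells held at least 2714 UMIs. Of the cell barcodes, 101 occurred in more than 1 library, which touched 202 cells, 25 of them Aldh1a3-positive AV cells. The doublet caller Scrublet marked 73 cells, 20 of them AV cells, and these were kept. The 6 AV markers Wfdc18, Csn3, Trf, Mfge8, Ltf and Elf5 were present in the Aldh1a3-positive cells of all 7 mice. Elf5 stood at 119 CPM or more (CPM, counts scaled to a fixed library total) and Ltf at 60.4 CPM or more. The paper named its AV cells by these same genes, so their presence is no separate check of the label. The summed level of the 6 markers was 13124 to 27151 CPM in positive and 12379 to 31386 CPM in negative cells. Of the 5 HS markers, Prlr reached 266 CPM and Cited1 26.4 CPM in the positive cells of the highest mouse, and Pgr, Esr1 and Prom1 reached 18.3 CPM or less. Of the 6 immune markers Cd74 reached 132 CPM, and Cd3e of T cells was at 0.

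In the raw counts Aldh1a3 was found in 20.5% of AV cells of young A (59 of 288), 40.4% of young B (42 of 104) and 56.7% of young C (228 of 402). It was found in 27.1% of AV cells of aged A (233 of 860), 42.5% of aged B (615 of 1446), 29.8% of aged C (271 of 909) and 19.5% of aged D (158 of 811). The shares differed widely between mice of 1 age group, and the 95% Wilson intervals of young A (16.2 to 25.5%) and young C (51.8 to 61.5%) were far apart. These intervals cover counting error only. The level in the summed AV cells ran from 46.6 CPM in aged D to 313 CPM in young C.

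Because deeper cells show more transcripts, each AV cell was also thinned to 2000 UMIs. At this depth the expected share was 8.64% in young A, 21.4% in young B, 33.9% in young C, 12.9% in aged A, 19.6% in aged B, 12.6% in aged C and 7.79% in aged D. The order of young C at the top and young A and aged D at the bottom held at both depths. The 3 young mice averaged 21.3% ± 12.6 (SD), the 4 aged mice 13.2% ± 4.84 (SD), and the groups overlapped. The difference of -8.12 percentage points was within the spread between mice (exact two-sided permutation test, p = 0.31, where the smallest possible p is 0.029). Without young C the difference shrank to -1.83 percentage points. With all luminal cells in the denominator its sign turned, to 5.65 percentage points higher in aged mice (exact p = 0.14). This measure still counts only positive AV cells, so it also follows the AV share of luminal cells, which the paper reports as larger in aged mice.

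**Figure D1:**
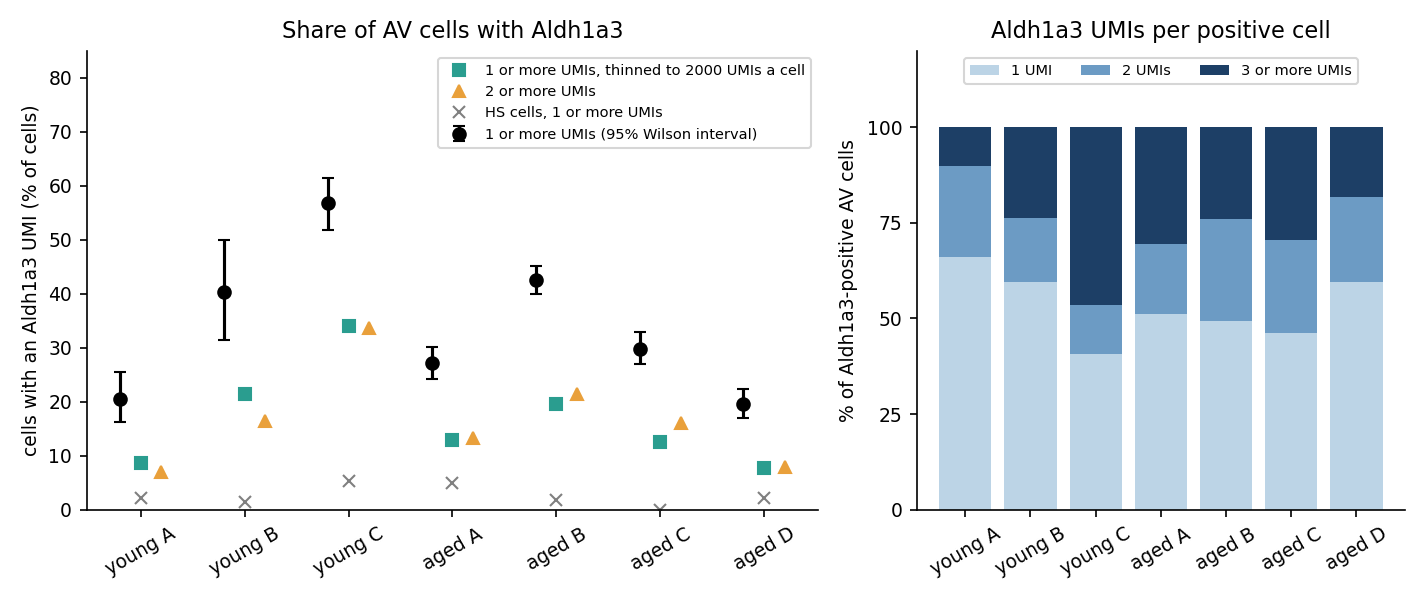
Left, percent of AV cells with Aldh1a3 in each mouse, as counted (black, with 95% Wilson intervals), after thinning to 2000 UMIs a cell (squares) and at 2 or more UMIs (triangles), with HS cells as counted (crosses). Right, Aldh1a3-positive AV cells of each mouse by their number of Aldh1a3 UMIs; young C has the highest share (56.7%) and the fewest positive cells with a single UMI (40.8%).

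Many positive cells lay just inside the rule. A single Aldh1a3 UMI was counted in 66.1% of the positive cells of young A, 59.5% of young B and 40.8% of young C. The values were 51.1% in aged A, 49.4% in aged B, 46.1% in aged C and 59.5% in aged D. At the other end, 26 of the 1606 cells held 10 or more UMIs, and the highest cell, in young C, held 31. The tenth of AV cells with the most Aldh1a3 held 48.3% to 73.7% of its UMIs in the 7 mice, a share that low counts per cell also raise. Were the UMIs spread over AV cells in proportion to depth alone, 25.7% of cells in young A and 82.4% in young C would hold 1, and the observed share was below this value in every mouse. A cell with 0 UMIs may still carry the transcript below detection, so that the negative class is a mixture at this depth.

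Aldh1a3 was not particular to AV cells within the gland. Fibroblasts held it in 24.3% of 1993 cells (95% Wilson interval 22.5 to 26.3%), at a level of 85.9 CPM against 108 CPM in AV cells, although their median cell had 4414 UMIs against 6632. HS cells had it in 3.41% of 2138 cells (median 7277 UMIs), myoepithelial cells in 1.62% of 1670 (median 4431 UMIs) and vascular endothelial cells in 2.42% of 1819 (median 4907 UMIs). Pericytes had 1 positive cell of 349 (0.287%, median 5065 UMIs), with at most 2.17% in 1 mouse. The paper reports markers of both luminal types in the cells labelled luminal HS-AV. These carried Aldh1a3 in 41 of 115 cells of young C (35.7%) and in 6 of 130 of young B (4.62%). None of the 12 HS-AV cells of young A had it, nor any of those of aged A (6), aged B (6) and aged D (4), numbers that allow little precision.

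Positive cells were deeper than negative ones, by 1.16-fold in the median cell ± 0.069 (SD, n = 7). To compare the classes at equal depth, each positive cell was therefore paired with a negative AV cell of the same mouse whose UMI total, without Aldh1a3, lay within 10%. This gave 59, 37 and 154 pairs in young A, B and C and 233, 575, 271 and 158 pairs in aged A, B, C and D, 1487 in all, and 119 positive cells were left out for want of a partner. After matching the median cell held 6719 UMIs ± 1123 in positive and 6682 ± 1165 in negative cells (SD, n = 7). Positive cells still expressed more distinct genes, 1781 ± 164 against 1713 ± 126 in the median cell (exact sign-flip test, p = 0.016, the smallest possible). This count includes Aldh1a3, which every positive cell holds by the rule. In young C it was 1616 against 1615.5, so the shared direction of the 7 mice and the p-value rest in part on Aldh1a3. The mitochondrial share of UMIs was 2.90% ± 0.842 in positive and 2.68% ± 0.616 in negative cells (exact sign-flip test, p = 0.16).

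The other markers of luminal progenitors were compared first. Kit was found in 22.0%, 43.2% and 38.3% of the matched positive cells of young A, B and C, and in 36.5%, 35.3%, 39.9% and 40.5% of those of aged A, B, C and D. In the matched negative cells it was found in 42.4%, 37.8% and 37.0% (young) and 26.2%, 31.3%, 21.8% and 25.9% (aged). Young A alone went down, and in the other 6 mice the share was higher in positive cells, by 1.30 to 18.1 percentage points. The mean difference was 4.76 percentage points ± 12.6 (SD, n = 7) and did not pass the test (exact sign-flip test, p = 0.36, adjusted p = 0.54 over 3 measures). Without young A it was 8.94 percentage points (exact p = 0.031, the smallest possible with 6 mice). With at least 2 Aldh1a3 UMIs it was 1.30 percentage points (exact p = 0.89). Pericytes, which should lack Kit, had it in 2.16% of cells in young mice (median 5304 UMIs) and 3.39% in aged mice (median 4570 UMIs). In the summed counts the log2 fold change of Kit was 0.43 ± 0.13 (SE, adjusted p = 0.11 by edgeR), which did not pass the test. It passed without young A (0.49, adjusted p = 0.049), with no depth matching (0.45, adjusted p = 0.047), with no filter on low counts (0.42, adjusted p = 0.013) and in the aged mice alone (0.58, adjusted p = 0.020). It did not pass in DESeq2 (0.39, adjusted p = 0.21), with at least 2 UMIs (0.40, 0.35), in G1 cells (0.34, 0.56) or in thinned cells (0.56, 0.15). Nor did it pass without any other single mouse, and the young mice alone gave -0.018.

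Cd14 was abundant in both classes. It was found in 74.6%, 73.0% and 76.0% of the positive cells of young A, B and C and in 83.1%, 81.1% and 76.0% of their negative cells. In the aged mice A to D it was found in 89.3%, 83.1%, 84.1% and 81.6% of positive and 86.7%, 76.3%, 81.9% and 75.3% of negative cells. No young mouse was higher and every aged mouse was higher in positive cells, and the mean difference over all mice was 0.188 percentage points ± 6.26 (SD, n = 7, exact p = 0.88). Pericytes had Cd14 in 12.6% of cells in young and 13.6% in aged mice. The level of Cd14 differed between the classes by a log2 fold change of -0.07 ± 0.09 (SE, adjusted p = 0.82 by edgeR).

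Cells with a UMI of all 3 markers made up 3.13% of AV cells in young A, 10.6% in young B, 20.4% in young C, 9.07% in aged A, 13.2% in aged B, 10.1% in aged C and 6.66% in aged D. Young C was highest here and for Aldh1a3 alone, which is part of the count, while young A was lowest here and aged D for Aldh1a3 alone. The deposited cell-cycle calls put 60.6% ± 10.0 of positive and 57.8% ± 11.3 of negative cells in S or G2M phase (SD, n = 7), a difference of 2.80 percentage points ± 3.47 that did not pass the test (exact p = 0.13, adjusted p = 0.38 over 3 measures). Of 8 S and G2/M genes with enough counts none was called between the classes (median log2 fold change -0.02). Whether the phase calls mark dividing cells was not tested.

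**Figure D2:**
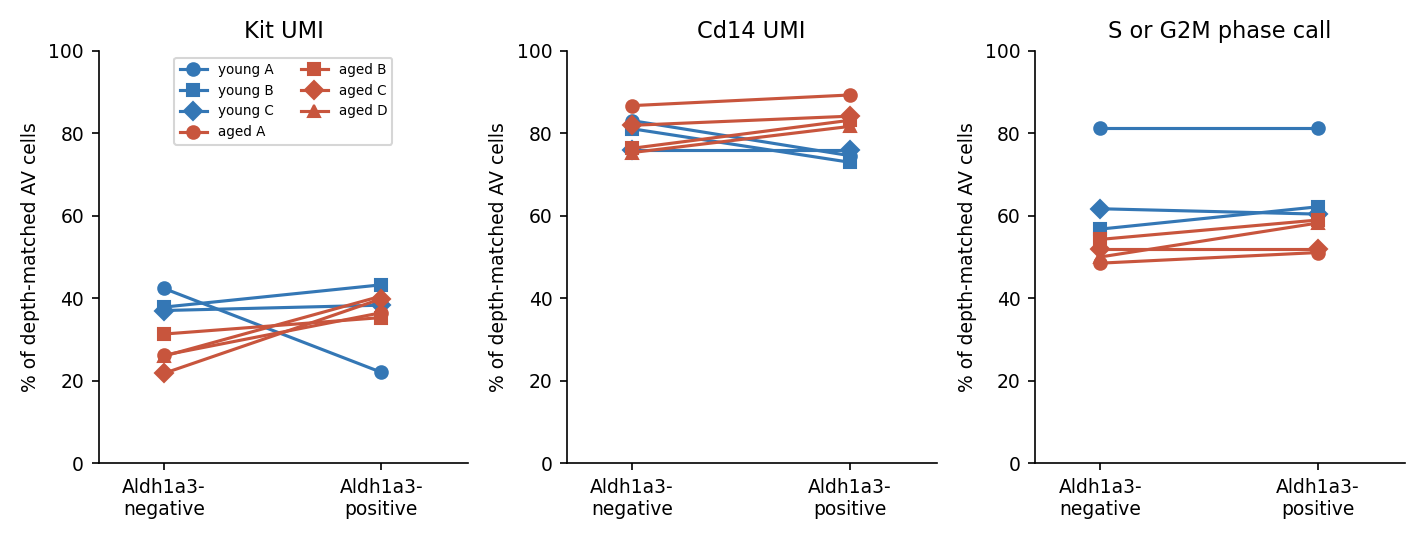
Percent of depth-matched AV cells of each mouse (blue, young; red, aged; 1 line per mouse) with a Kit UMI, with a Cd14 UMI and with an S or G2M phase call, in Aldh1a3-negative and Aldh1a3-positive cells. Kit falls in young A alone, Cd14 rises in the 4 aged mice and in no young mouse, and the phase shares differ little between the classes.

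Beyond these markers, the transcriptome of the positive cells differed in a limited set of genes. UMIs were summed per mouse and class, Aldh1a3 was removed from the table, and the classes were compared with the quasi-likelihood test of edgeR, with the mouse as a block and a call at an adjusted p under 0.05 and at least 1.25-fold. Of 6772 genes tested, 50 were higher (0.738%) and 51 lower (0.753%) in Aldh1a3-positive cells, together 1.49%, and the median log2 fold change over all genes was -0.01. Among the genes that were higher were the secreted Ltf and Wfdc18, the calcium-binding S100a6, the keratins Krt19 and Krt7 and the retinoic acid carrier Crabp2. Among those that were lower were Csn1s1, Lalba and Spp1, the chitinase-like Chil1 and the early-response genes Btg2, Ier2 and Egr1. The counts moved with single mice: leaving out aged A left 8 higher and 14 lower genes, leaving out aged C 5 and 12, leaving out aged D 12 and 17, and leaving out young C gave 63 and 80. DESeq2 called 14 higher and 18 lower. Of the 101 genes, 15 were called in every fit without 1 mouse and 32 had an adjusted p under 0.05 in DESeq2, while 35 got no adjusted p there.

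**Figure D3:**
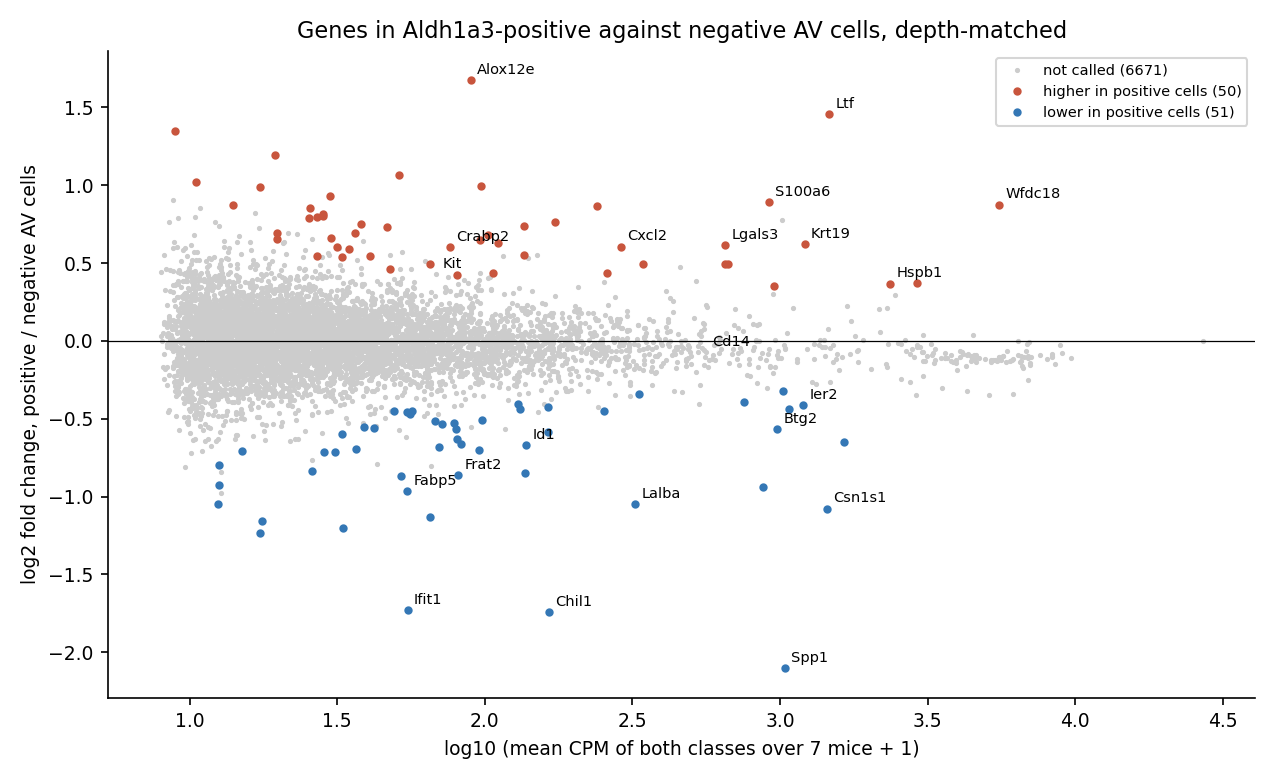
Log2 fold change of each of the 6772 genes tested in Aldh1a3-positive against negative AV cells (y) against the log10 of the mean CPM + 1 over both classes (x). The 50 called higher (red) and the 51 called lower (blue) lie on both sides of an even background, with Alox12e and Ltf at the top, Spp1, Chil1 and Ifit1 at the bottom, and Kit and Cd14, marked by name, among the genes not called.

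Of the 50 genes that were higher, 13 were higher in all 7 mice, which the call itself favours. The 13 were named for that agreement, so it is no separate support for them. S100a6, a calcium-binding protein, stood at 722, 1185 and 2474 CPM in the positive cells of young A, B and C against 644, 844 and 1794 in the negative cells. Its values in aged A to D were 890, 1134, 585 and 907 CPM against 300, 838, 255 and 250. Every mouse was higher in positive cells, and the ratio of the classes was highest in aged A, C and D (log2 fold change 0.89 ± 0.15 SE, adjusted p = 0.0027). S100a10, which pairs with annexin A2 at the membrane, rose with it (0.50 ± 0.08, adjusted p = 0.0027).

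Wfdc18, a secreted whey acidic protein family member, stood at 8833, 6620 and 10938 CPM in the positive cells of young A, B and C against 8004, 4648 and 9814 CPM in the negative cells. In aged A to D the positive cells held 6132, 4206, 4345 and 5145 CPM against 3209, 3165, 1317 and 1046. The young levels lay above the aged ones in both classes, and the ratio of the classes was highest in aged C and D (log2 fold change 0.87 ± 0.18 SE, adjusted p = 0.016). The call was lost without aged A or aged C, and in G1 cells (0.53, adjusted p = 0.54 by edgeR).

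Lgals3, the carbohydrate-binding galectin-3, stood at 141, 232 and 1437 CPM in the positive cells of young A, B and C and at 1608, 693, 809 and 626 CPM in those of aged A to D. Its negative cells held 113, 220 and 897 CPM and 957, 653, 465 and 286 CPM. The mice differed more from one another than the classes did, and the direction was, by the pick, the same in 7 of 7 (0.62 ± 0.10 SE, adjusted p = 0.0027). Cxcl2, a chemokine that draws neutrophils, likewise rose in 7 of 7 mice (0.61 ± 0.10, adjusted p = 0.0027), from 15.8 to 685 CPM in negative and 22.4 to 808 CPM in positive cells. For cells with at least 2 Aldh1a3 UMIs its log2 fold change was 0.12 (adjusted p = 0.89), and over 0, 1, 2 and 3 or more UMIs it averaged 226, 374, 230 and 335 CPM, without an order. Lad1, an anchoring filament protein, Prelp, a matrix proteoglycan, Hspb1, a small heat shock protein, Atp2b1, a calcium pump, and Kcnn4, a potassium channel, also rose in all 7 mice, as did Abhd11os and Bola1, at log2 fold changes of 0.37 to 0.73. The calls of Prelp, Hspb1, Atp2b1 and Kcnn4 were lost without aged A, C or D, that of Lad1 without aged C and that of Abhd11os without any 1 of the aged mice. Bola1 was called in 0 of the 7 fits without 1 mouse and not with no depth matching (adjusted p = 0.17), and DESeq2 gave neither Abhd11os nor Bola1 an adjusted p.

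The plots of paired levels and of levels by number of UMIs show how these genes moved in single mice. Crabp2, which carries retinoic acid to its nuclear receptor, stood at 71.6, 68.7 and 117 CPM in the positive cells of young A, B and C against 65.3, 51.7 and 96.4 CPM in the negative cells. The 4 aged mice, A to D, held 48.3, 130, 81.0 and 102 CPM against 28.5, 107, 37.7 and 46.7. It was higher in the positive cells of every mouse, with a ratio above that of the young mice in aged A, C and D (log2 fold change 0.60 ± 0.12 SE, adjusted p = 0.016). The Crabp2 call was lost without aged A (adjusted p = 0.074), aged C (0.13) or aged D (0.079) and in thinned cells (0.069). The young mice alone gave 0.26 (adjusted p = 0.92). Fabp5, a fatty acid carrier that can also bind retinoic acid, went the other way, at 87.2, 55.8 and 32.5 CPM in positive cells of young A, B and C against 96.8, 25.8 and 65.6. Aged A to D held 35.9, 25.8, 37.1 and 13.9 CPM against 93.6, 44.4, 89.2 and 44.8, and it was lower in 6 of 7 mice (-0.96 ± 0.16, adjusted p = 0.0027).

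Of the 28 listed genes of retinoid metabolism and signaling, 12 had enough counts, and Crabp2 and Fabp5 were the 2 called (median log2 fold change of the 12, 0.00, against -0.01 over all genes). None of the 6 tested genes among 19 other aldehyde dehydrogenases was called (median -0.03), and none of the 7 tested among 10 luminal progenitor genes (median 0.03), which include Kit, Cd14 and Elf5.

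**Figure D4:**
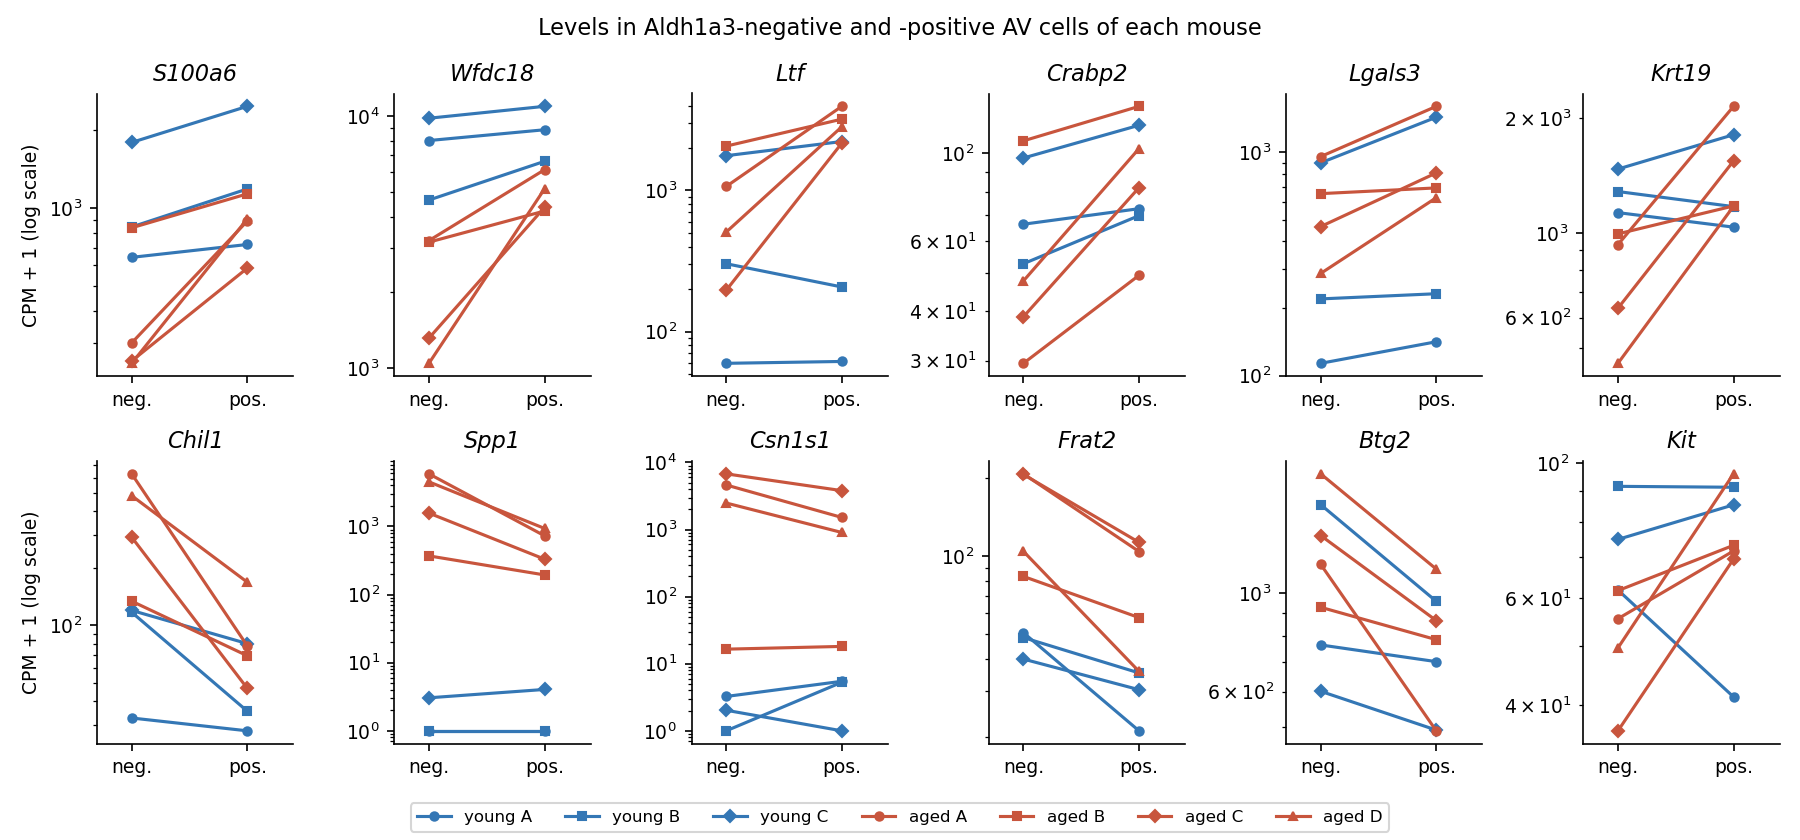
Levels of 12 genes (CPM + 1, log scale) in the Aldh1a3-negative (left) and Aldh1a3-positive (right) depth-matched AV cells of each mouse, blue for young and red for aged. S100a6, Wfdc18, Crabp2 and Lgals3 rise and Chil1, Frat2 and Btg2 fall in all 7 mice, while Ltf and Krt19 rise in the 4 aged mice and Spp1 is near 0 in the young.

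The milk and secretory genes split. Of 22 listed, 14 were tested, 4 were higher (Ltf, Wfdc18, Mfge8, Muc1) and 4 lower (Spp1, Csn1s1, Lalba, Cidea), with a median log2 fold change of -0.14. Ltf, the iron-binding antimicrobial lactoferrin, stood at 60.4, 206 and 2222 CPM in the positive cells of young A, B and C against 58.5, 302 and 1763. Aged A to D held 3946, 3201, 2161 and 2825 CPM against 1066, 2062, 195 and 506. All 4 aged mice were higher in positive cells, while young A was near even, young B lower and young C higher (1.46 ± 0.31 SE, adjusted p = 0.019). The call was lost in DESeq2 (adjusted p = 0.20) and without aged A, C or D. Of the aged cells with Aldh1a3, 66.4% to 88.4% held a Ltf UMI in the 4 mice, against 28.8% to 66.8% of those without and 18.6% of pericytes in aged mice.

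Spp1, the secreted phosphoprotein osteopontin, was at 0, 0 and 3.05 CPM in the positive cells of young A, B and C and at 0, 0 and 2.05 CPM in the negative cells. In aged A to D it stood at 728, 193, 330 and 933 CPM in positive against 5903, 368, 1566 and 4506 CPM in negative cells. It was thus measured in the aged mice alone, and lower in the positive cells of all 4 (-2.10 ± 0.21 SE, adjusted p = 3.6e-05 in edgeR, 0.099 in DESeq2). Its UMIs sat in few cells, with 84.2% of those of the 1237 negative aged cells in the 124 highest and up to 629 UMIs in 1 cell. Csn1s1, the alpha-S1 casein of milk, was at 4.47 CPM or less in young mice. It was lower in the positive cells of aged A (1515 against 4617 CPM), aged C (3803 against 6763) and aged D (904 against 2485), and even in aged B (17.1 against 15.5), at -1.08 ± 0.16 (adjusted p = 0.0013 in edgeR, 0.11 in DESeq2). Lalba, the milk protein alpha-lactalbumin, was lower in the positive cells of the 4 aged mice and slightly higher by value in the 3 young mice (-1.05 ± 0.20, adjusted p = 0.0084 in edgeR, 0.11 in DESeq2), and its call was lost without aged A or C. Both transcripts were also counted in cells of other types in aged mice, with Csn1s1 in 21.2% and Spp1 in 8.47% of pericytes (median 4570 UMIs).

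Alox12e, an epidermal lipoxygenase, had the highest log2 fold change of the called genes and was picked after its values were seen. It was at 1.02 CPM or less in the matched positive cells of young mice, and at 11.5 CPM in all positive cells of young B. The matched positive cells of aged A to D held 250, 178, 165 and 361 CPM against 65.7, 131, 40.7 and 43.8 CPM in their negative cells (1.67 ± 0.24 SE, adjusted p = 0.0012 in edgeR, 0.064 in DESeq2). Its UMIs were found in 30.6% to 38.4% of the positive aged cells, against 8.86% to 25.7% of the negative ones and 3.39% of pericytes in aged mice.

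Among 13 keratins and adhesion genes, of which 12 were tested, Krt19 and Krt7 were higher (median 0.08). Krt19, a keratin of luminal cells, stood at 2148, 1177, 1544 and 1174 CPM in the positive cells of aged A to D against 931, 994, 634 and 454. In young A, B and C it stood at 1035, 1172 and 1810 CPM against 1130, 1284 and 1471, so that 2 young mice went down (0.62 ± 0.15, adjusted p = 0.036 in edgeR, 0.10 in DESeq2). Krt7 was higher in 6 of 7 mice (0.63 ± 0.14, adjusted p = 0.024). The calls of Krt19, Krt7 and Tagln were lost without aged A, C or D. Of 12 myoepithelial markers, 4 were tested and Tagln, an actin-binding protein, was higher (0.82 ± 0.18, adjusted p = 0.027) and higher by value in young A and in aged A, B and D. The defining myoepithelial markers Krt14, Acta2 and Krt17 were tested and not called. The summed level of 12 listed myoepithelial markers was 77.2 to 270 CPM in positive and 50.3 to 297 CPM in negative cells.

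Of the 51 genes that were lower in positive cells, 14 were lower in all 7 mice, which the call itself favours. The 10 of them named here were picked for that agreement, so it is no separate support for them. Chil1, a secreted chitinase-like protein, stood at 26.8, 34.3 and 79.2 CPM in the positive cells of young A, B and C against 31.5, 116 and 119 CPM in the negative cells. Its values in aged A to D were 77.1, 68.2, 45.6 and 168 CPM against 628, 133, 291 and 482. Every mouse was lower, most of all aged A (-1.74 ± 0.22 SE, adjusted p = 0.00036). Of 22 antimicrobial and acute-phase genes, 10 were tested, Cxcl2 was higher and Chil1 and Lbp, the lipopolysaccharide-binding protein (-0.63 ± 0.12, adjusted p = 0.011), were lower, with a median of -0.13. The Lbp call was lost without aged A, C or D.

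Frat2, an inhibitor of GSK3 in Wnt signaling, stood at 20.1, 34.3 and 29.4 CPM in the positive cells of young A, B and C against 49.5, 47.4 and 39.0 CPM. In aged A to D it stood at 103, 56.8, 112 and 34.8 CPM against 206, 82.3, 205 and 103 (-0.86 ± 0.12, adjusted p = 0.00043). All 7 mice were lower, and the levels of the aged mice lay above those of the young ones in negative cells. Lipa, the lysosomal acid lipase (-0.57 ± 0.10, adjusted p = 0.0042), and Angptl4, an inhibitor of lipoprotein lipase (-0.58 ± 0.12, adjusted p = 0.021), were lower in every mouse as well. Fam20a, a pseudokinase of secreted protein phosphorylation, Dusp4, a MAP kinase phosphatase, Lyplal1, Dnajb9, a chaperone of the endoplasmic reticulum, and the phosphatase subunit Ppp2r2d changed by -1.15 to -0.47, the first 3 of them at 44.6 CPM or less in every mouse and class. The calls of Angptl4, Dusp4, Dnajb9, Lyplal1 and Ppp2r2d were lost without aged A, C or D, that of Lyplal1 also without young A and that of Ppp2r2d without aged B, and that of Fam20a was lost without aged C.

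Of 24 early-response and dissociation genes, all tested, 3 were lower, none was higher and 21 were not called, with a median log2 fold change of -0.17. Btg2, an antiproliferative early-response gene, stood at 700, 957 and 490 CPM in the positive cells of young A, B and C against 763, 1581 and 600. The levels in aged A to D were 489, 785, 866 and 1132 CPM against 1160, 928, 1347 and 1855. It was lower in each mouse (-0.57 ± 0.10, adjusted p = 0.0042). Ier2 (-0.41 ± 0.08, adjusted p = 0.0077) and Egr1 (-0.32 ± 0.08, adjusted p = 0.036), a transcription factor at the fold limit, were lower in 6 of 7 mice.

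Of 22 tested luminal lineage transcription factors, 2 were lower, none was higher and the median was -0.07. Id1, an inhibitor of helix-loop-helix factors, changed by -0.67 ± 0.14 (adjusted p = 0.017, lower in 6 of 7 mice), and Hey1, a target of Notch and the one called gene of 7 tested in that pathway, by -0.70 ± 0.16 (adjusted p = 0.033, lower in 5 of 7). DESeq2 gave them adjusted p-values of 0.063 and 0.14, and both calls, like that of Egr1, were lost without aged A, C or D. The call of Isg15 was lost without aged C or D. Of 13 tested MHC class I and interferon genes, Ifit1 (-1.73 ± 0.23, adjusted p = 0.00043) and Isg15 (-0.68 ± 0.16, adjusted p = 0.033) were lower and 11 were not called (median -0.05). Ifit1 was lower in the positive cells of the 4 aged mice, such as 77.4 against 297 CPM in aged C, and higher in young A and B, and DESeq2 did not call it (adjusted p = 0.47).

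No gene was called among 5 tested hormone-sensing markers (median -0.35), 2 fibroblast, 2 endothelial and pericyte and 1 immune marker, 12 mitochondrially encoded genes (median -0.02) and 15 growth factor genes (median -0.05). The summed levels of the HS markers Prlr, Pgr, Esr1, Cited1 and Prom1 were 22.6 to 292 CPM in positive and 43.8 to 262 CPM in negative cells, and those of the 6 immune markers 9.43 to 163 CPM and 17.3 to 258 CPM.

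The levels were also read over the number of Aldh1a3 UMIs in a cell, in all AV cells without depth matching, as a description. Ltf averaged 859 CPM in cells with 0 Aldh1a3 UMIs, 1638 with 1, 2409 with 2 and 2602 with 3 or more. S100a6 averaged 769, 985, 1176 and 1496 CPM, and Wfdc18 4860, 6120, 7342 and 7726 CPM over the same classes. Chil1 ran the other way, at 203, 97.0, 62.8 and 26.8 CPM, and so did Btg2, at 1129, 873, 766 and 687 CPM. Cells with a single UMI thus lay between the others in the means over mice of these 5 genes. This order did not hold in every mouse. Wfdc18 stood at 10038, 9650, 11593 and 9093 CPM in young A, and Btg2 at 647, 818, 555 and 417 CPM in young C. Crabp2 averaged 65.4, 77.2, 104 and 107 CPM. Kit averaged 60.8, 80.3, 56.0 and 90.5 CPM and Cd14 553, 563, 648 and 561 CPM, without an order.

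**Figure D5:**
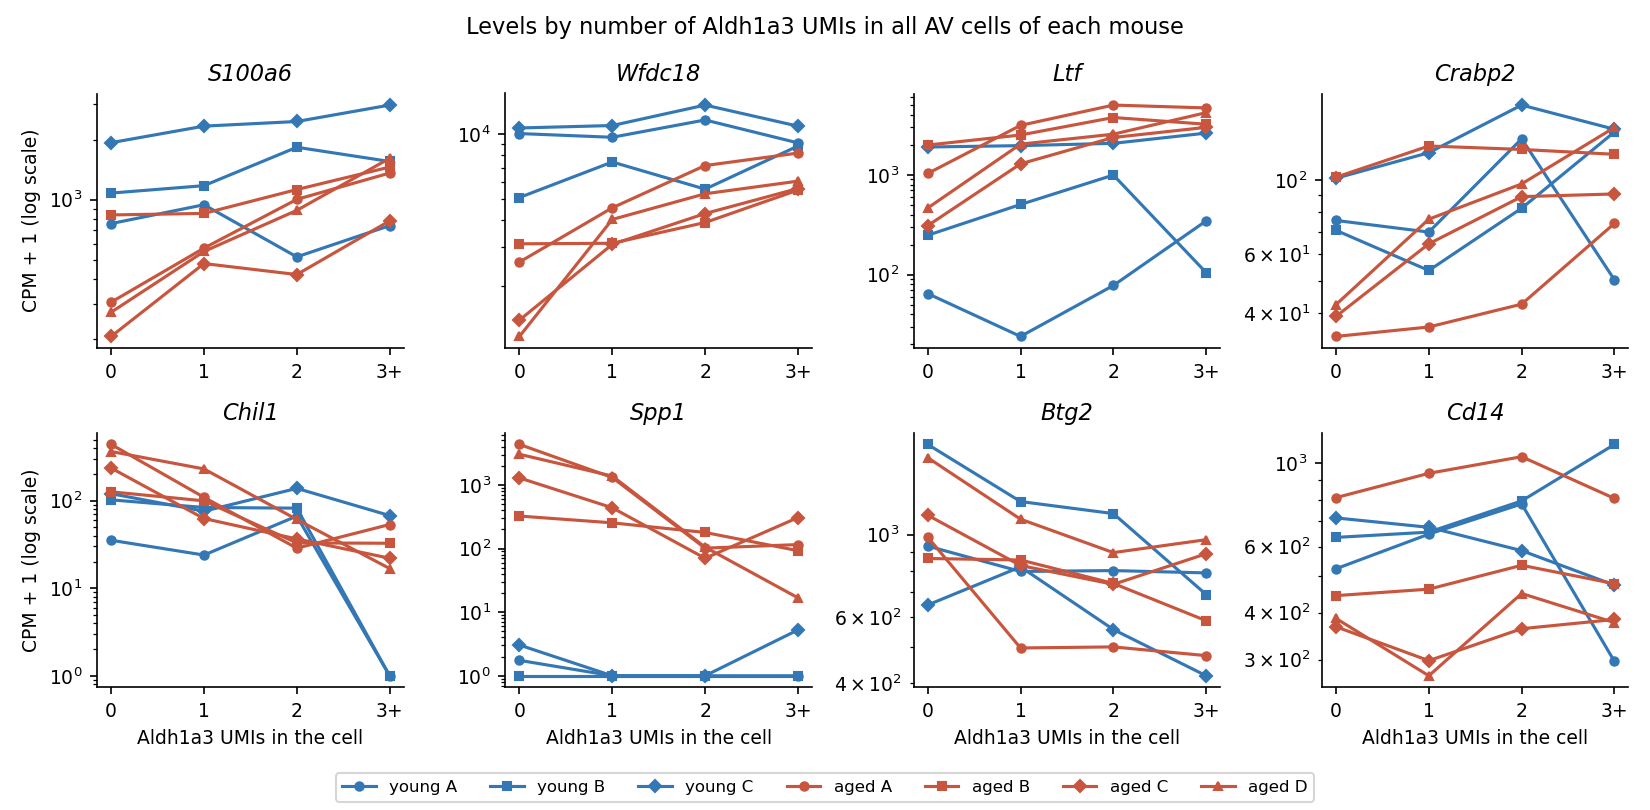
Levels of 8 genes (CPM + 1, log scale) in AV cells of each mouse with 0, 1, 2 or 3 and more Aldh1a3 UMIs, blue for young and red for aged. In all 4 aged mice S100a6, Wfdc18 and Ltf are higher and Chil1, Spp1 and Btg2 lower at 3 or more UMIs than at 0, Cd14 has no order, and the young A and young B points at 3 or more UMIs rest on 6 and 10 cells.

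Whether positive and negative cells differed in another way in aged than in young mice was tested as an interaction. Of 6772 genes, 20 were called (0.295%), 5 with a higher and 15 with a lower ratio of positive to negative cells in aged mice. Gsn, the actin-severing gelsolin, stood at 152, 77.3 and 284 CPM in the positive cells of young A, B and C against 331, 94.8 and 352 CPM in the negative ones. In aged A to D it stood at 111, 66.7, 47.0 and 53.1 CPM against 55.1, 47.0, 26.5 and 18.5. It was lower in the positive cells of all 3 young mice and higher in those of all 4 aged mice, a difference of 1.42 ± 0.23 on the log2 scale (SE, adjusted p = 0.0056). Crip1, a LIM domain protein, had the same pattern (1.78 ± 0.34, adjusted p = 0.020), as had Tagln2, an actin-binding relative of Tagln, apart from young C (1.34 ± 0.25, adjusted p = 0.015). Itpkc, an inositol trisphosphate kinase (-1.24 ± 0.22, adjusted p = 0.011), and Ptx3, a secreted pattern receptor (-1.78 ± 0.36, adjusted p = 0.030), were higher in the positive cells of the young mice. Of the called genes of the class comparison, Krt19, Tagln2 and Mt1, a metallothionein named after its values were seen, were also called here. The number of calls moved with single mice, from 1 and 3 without young A, without young B or without aged C, and 1 and 7 without aged A and 2 and 8 without aged D, to 32 and 46 without aged B. Without young C they were 4 and 9. In the 4 aged mice taken alone the classes differed in 98 higher and 129 lower genes of 8052, and in the 3 young mice taken alone in 1 and 0 of 3688 (edgeR, 206 genes at an unadjusted p under 0.05). The young mice had 250 pairs against 1237, so these counts are not a comparison of the ages.

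Aldh1a3-positive cells of aged mice were last set against those of young mice, in all positive cells without matching. At an adjusted p under 0.05 and at least 1.5-fold, 125 genes were higher (1.60%) and 122 lower (1.56%) of 7797 tested, together 3.17%. The age groups did not overlap in 235 of these 247 genes, which the call itself favours, and in 1474 of all genes tested (18.9%). The counts were 17 and 24 without young C, 68 higher without young A, 72 higher without young B, and 72 and 67 without aged C. Elf5, the transcription factor of the alveolar lineage, was higher in aged mice (357 ± 53.5 CPM, SD, n = 4, against 169 ± 45.6, n = 3; log2 fold change 1.02 ± 0.23, adjusted p = 0.039), and was called in 1 of the 7 fits without 1 mouse. Dhrs3 was higher as well, which turns retinaldehyde back into retinol (133 ± 33.6 against 37.3 ± 11.4 CPM; 1.78 ± 0.29, adjusted p = 0.0079), the 1 called gene of 13 tested in the retinoid list. Kit, Cd14 and Crabp2 were not called (adjusted p of 1.0, 0.75 and 0.92).

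Of 18 tested milk and secretory genes, 5 were higher and 2 (Wfdc18, Cd36) lower with age (median 1.25), among them Mfge8, the milk fat globule protein (4479 ± 637 against 1963 ± 567 CPM; 1.13 ± 0.23, adjusted p = 0.023). Csn1s1 gave 3 UMIs in all young and 12226 in all aged positive cells, Csn1s2a 1 and 4679, and Spp1 3 and 3914. The aged mice were uneven: in A to D Csn1s1 stood at 1539, 27.1, 3964 and 911 CPM and Csn1s2a at 288, 3.77, 1801 and 282 CPM. Csn1s1 was called in 4, Csn1s2a in 1 and Spp1 in 7 of the 7 fits without 1 mouse. Non-luminal cells went from 0 to 84.3 CPM for Csn1s1, 0 to 18.7 for Csn1s2a and 3.49 to 39.3 for Spp1. Of 14 tested MHC class I and interferon genes, 3 were higher and none lower (median 1.06), such as Irf1 (148 ± 55.1 against 18.0 ± 3.62 CPM; 3.00 ± 0.36, adjusted p = 0.0011). Alox12e gave 4 UMIs in young and 1980 in aged positive cells (6.90 ± 0.70, adjusted p = 0.00037). Against a floor of 3 UMIs over the group that had none, 2210407C18Rik was at least 24.4-fold, 1810065E05Rik at least 10.1-fold and Pianp at least 9.19-fold higher in aged mice, with Esm1 (342 UMIs) and Sectm1a (171 UMIs) between the first and the second. Pianp and 1810065E05Rik were each called in 1 of the 7 fits without 1 mouse. In non-luminal cells Pianp went from 2.31 CPM in young to 29.8 CPM in aged mice and Sectm1a from 0.405 to 22.0 CPM, above their means in aged positive cells (13.6 and 19.8 CPM). Gm10260 was at 9.57 ± 4.94 CPM in young and 3397 ± 652 CPM in aged positive cells, and at 5.15 and 2090 CPM in their non-luminal cells, so that this gap ran across cell types.

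Among the genes that were lower with age, BC018473 (2047 UMIs in young mice), Dmbt1, a secreted scavenger receptor (130 UMIs), and Penk, an opioid precursor (26 UMIs), had no UMI in aged positive cells, and were at least 3242-fold, 206-fold and 41.2-fold lower against the same floor. In non-luminal cells BC018473 went from 34.4 CPM in young to 0.556 CPM in aged mice, Dmbt1 from 17.8 to 0.203 CPM and Penk from 74.5 to 24.1 CPM. Pi16, Gpc6, Igfbp6, Mfap5, Retnla, Serpinf1 and Nrxn3 followed, at 17.7 to 85.5 CPM in young and 0.37 to 2.04 CPM in aged mice. Pi16, Igfbp6, Mfap5, Retnla and Serpinf1 were at 802 to 1623 CPM in the non-luminal cells of young mice and at 6.28 to 176 CPM in those of aged mice. The 9 fibroblast markers summed to 195 to 592 CPM in the positive cells of young and 55.0 to 142 CPM in those of aged mice, with Col1a1, Dcn and Serpinf1 lower and none higher of 4 tested. The 10 hormone-sensing markers summed to 311 to 439 CPM in young and 55.5 to 109 CPM in aged mice, with Prlr, Cited1 and Areg lower of 7 tested (median -2.10). The part of RNA from other cells in these differences was not tested.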

How the data were processed

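Cells of 7 mice were profiled with the 10x Chromium 3′ v2 kit. Per the labels, reads were processed with Cell Ranger 2.0 on mm10, and the authors removed cells by UMI, gene and mitochondrial limits. The deposited values are raw UMI counts of 27998 genes in 13684 cells, and the mouse, cell type and phase of each cell were used as deposited. Rows split under 1 symbol (65) were merged. Depth was 6652599 to 16999625 UMIs per mouse, and intervals cover counting error alone. A floor of 3 UMIs was used for genes with none in a group.

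The members and the 18 gene lists (301 of 302 genes measured) were chosen with earlier results of these data known. Genes named are Kit, Cd14, up to 15 called genes highest and 10 lowest that moved alike in every mouse (13 rose), up to 4 called members per list, the 10 largest non-overlapping calls per direction with age, and the 5 largest interactions. Alox12e, Mt1 and the further list members were named after their values were seen. Two-sided tests were edgeR 4.0.16 (TMM, filterByExpr, Benjamini-Hochberg) on sums per mouse and class, and exact permutation or sign-flip tests over mice. CPM in the class comparison are TMM-scaled and of matched cells, in the age comparison of all positive cells. Positive and negative cells share their mouse, which is the block (correlation of their deviations 0.20 to 0.68). Thinning to 2000 UMIs used the exact hypergeometric share. Scrublet in scanpy 1.11.5 ran at an expected rate of 0.06. Alternatives were DESeq2 1.42.0, RLE factors, no filter, no matching, thinning, at least 2 UMIs, no doublets, G1 cells, no ribosomal protein and mitochondrial genes, no fold minimum, other blocks and each mouse left out, with fits of each age group added after the data were seen. Fits were tested on simulated data. Fits ran in R 4.3.3, and all else in Python 3.11.15 (scipy 1.17.1, numpy 2.4.6, pandas 2.3.3; plots in matplotlib 3.10.9). The position is from RefSeq on GRCm38.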

Additional observations from a re-analysis of the deposited data

Results flagged for a closer look

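In 45 groups of values checked for a mouse far from the others, of which chance would single out about 1 in 20, a pair stood out. Abhd11os had a log2 ratio of positive to negative cells (CPM + 1) of 1.59 in aged C, apart from the other 6 mice. Isg15 had 1.69 in young B, where few UMIs were counted, while it was lower in the positive cells of the other 6 mice.

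The difference of Cd14 shares between positive and negative cells was 10.0 percentage points higher in aged than in young mice (-5.53 ± 4.79, SD, n = 3, in young and 4.48 ± 2.41, n = 4, in aged; exact permutation p = 0.029, the smallest possible). With cells thinned to 2000 UMIs it was 4.45 percentage points (exact p = 0.11), and the levels of Cd14 gave an interaction of -0.10 (adjusted p = 0.92 by edgeR). The same difference of Kit shares was 16.3 percentage points (exact p = 0.086).

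The edgeR interaction of class and age was called for Crip1 (1.78, adjusted p = 0.020), Ptx3 (-1.78, adjusted p = 0.030), Gsn (1.42, adjusted p = 0.0056), Tagln2 (1.34, adjusted p = 0.015), Itpkc (-1.24, adjusted p = 0.011) and Krt19 (0.99, adjusted p = 0.021), all on the log2 scale as the ratio of positive to negative cells in aged over that in young mice. Of the fits that left out 1 of the 7 mice, Gsn was called in 6, Itpkc in 4, Krt19 and Tagln2 in 2, and Crip1 and Ptx3 in 1.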

How the results depend on the processing

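The 50 higher and 51 lower genes of positive against negative cells became 14 and 18 with DESeq2, 115 and 170 with no filter, 19 and 28 with thinned cells, 30 and 34 with at least 2 UMIs, 8 and 11 in G1 cells, 98 and 129 in aged mice only and 1 and 0 in young mice only. With no replicate block they became 0 and 0 (edgeR, 103 genes at an unadjusted p under 0.05). Without 1 mouse they ran from 5 to 63 and from 12 to 80. The 5 and 15 interactions became 33 and 58 with no filter and 3 and 2 with no depth matching, and ran from 1 to 32 and from 3 to 46 without 1 mouse. The 125 and 122 genes with age became 426 and 342 with no filter, 75 and 68 with at least 2 UMIs and, with the letters of the mice as a replicate block, 73 and 60, and ran from 17 to 175 and from 24 to 161 without 1 mouse. The cause of these moves was not tested.

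The letters name different animals, and the labels do not say what else same-lettered mice share. The deviations of same-lettered young and aged mice correlated at -0.17, -0.04 and -0.02, within the -0.20 to 0.18 of all letter pairs. With so few mice these values cannot show whether a batch was shared. With that replicate block the age difference of the Aldh1a3 share was -6.32 percentage points (exact p = 0.75). It turned to 5.65 with all luminal cells as the denominator and ran from -14.5 to -1.83 without 1 mouse. The Kit difference ran from 2.54 to 8.94 percentage points without 1 mouse. The Cd14 difference was 4.73 (exact p = 0.031) with at least 2 UMIs and ran from -0.911 to 1.63 without 1 mouse. The phase difference was -0.031 with no depth matching and ran from 1.90 to 3.48 without 1 mouse. In young mice only, Lalba (0.080), Isg15 (0.048) and Kit (-0.018) changed sign, and Cd14 did so with at least 2 UMIs (0.062). The named genes otherwise kept their direction, with 263 of their values under the alternatives no longer called, 4 newly called (all of Kit) and the others on the same side of the threshold. The comparison of HS cells with and without Aldh1a3 was not run, since 1 mouse (young C, 46 pairs) had 10 or more pairs. Depth limits the negative class, since a cell at 0 may hold the transcript.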
